A study of Mus musculus with 12 samples.

Results

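Feedback inhibitors of cytokine signalling were followed in mouse bone-marrow-derived macrophages across 4 groups: untreated cells, and cells kept for 8 h with interferon gamma (IFNγ), at doses of 0.2, 2 or 20 U/ml. The set holds 8 genes taken by symbol, by a rule that uses no measured value, though the set was drawn up with earlier results of these data known: the suppressors of cytokine signalling Socs1, Socs2, Socs3 and Cish, the tyrosine phosphatase genes Ptpn1, Ptpn2 and Ptpn6, and Pias1. All 8 were found as entries of their own among the 46729 entries of the expression table, and 6 of the 8 passed a filter on low values (on average 1 FPKM or more across the groups), among 11580 entries that did. The untreated cells shared with the treated ones the C57BL6 strain, early growth in interleukin-3, medium conditioned by L-929 cells as the source of CSF-1 over 10 days of differentiation, and fresh medium at the time of treatment. The labels give 3 libraries per group and no animal or culture of origin, and the label of the highest dose gives U without a volume, which was read as U/ml. The deposited table holds 1 value per gene and group, in FPKM (fragments per kilobase, a unit that corrects for transcript length and library size), so no difference by dose has a replicate error or a test, and the depth of the libraries is unknown.

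IFNγ binds a receptor whose JAK1 and JAK2 kinases phosphorylate STAT proteins, and STAT dimers then switch on genes through GAS elements, in part by way of the transcription factor IRF1. The pathway is checked at several levels. SOCS proteins are themselves made in response to cytokines: SOCS1 and SOCS3 block JAK kinases, SOCS2 and CIS (the product of Cish) are best known as brakes on STAT5 signalling, and the SOCS box recruits elongins and a cullin to mark bound proteins for degradation. The phosphatases TC-PTP (Ptpn2), PTP1B (Ptpn1) and SHP-1 (Ptpn6) remove phosphate from JAK or STAT proteins, and PIAS1 is a SUMO ligase that limits the binding of STAT proteins to DNA.

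The promoters of 3 SOCS genes are shown because SOCS genes are known to answer cytokines through GAS and IRF elements, and because their transcripts stood far apart in level. RefSeq windows on GRCm38.p6, 250 bases before to 50 after the annotated start, were read for 6 of the 8 genes, without Socs2 and Ptpn2. Capitals mark matches to a GAS element, TTCNNNGAA, or to an IRF element, GAAANNGAAA on either strand; each line reads 5′ to 3′ on the gene's strand. The Socs1 window is chr16:10785487-10785786 (minus strand), the Socs3 window chr11:117969317-117969616 (minus strand) and the Cish window chr9:107296409-107296708 (plus strand).
Socs1: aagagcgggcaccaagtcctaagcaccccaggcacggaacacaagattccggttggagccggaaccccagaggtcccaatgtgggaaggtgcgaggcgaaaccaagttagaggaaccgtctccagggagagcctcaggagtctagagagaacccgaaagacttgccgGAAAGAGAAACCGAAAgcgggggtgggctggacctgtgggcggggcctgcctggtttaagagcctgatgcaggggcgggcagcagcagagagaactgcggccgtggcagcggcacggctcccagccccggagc
Socs3: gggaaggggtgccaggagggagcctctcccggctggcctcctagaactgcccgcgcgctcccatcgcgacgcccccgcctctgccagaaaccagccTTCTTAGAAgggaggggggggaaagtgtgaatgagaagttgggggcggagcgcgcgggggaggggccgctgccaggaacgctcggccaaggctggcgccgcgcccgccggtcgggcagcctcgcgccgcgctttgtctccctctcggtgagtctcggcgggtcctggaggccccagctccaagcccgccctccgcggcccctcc
Cish: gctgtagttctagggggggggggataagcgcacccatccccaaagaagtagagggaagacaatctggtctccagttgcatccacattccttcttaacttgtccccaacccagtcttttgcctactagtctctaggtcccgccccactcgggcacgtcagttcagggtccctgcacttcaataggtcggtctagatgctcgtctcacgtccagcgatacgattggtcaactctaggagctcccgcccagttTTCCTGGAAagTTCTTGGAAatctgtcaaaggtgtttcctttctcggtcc
The Socs1 window held 2 overlapping IRF elements, from base -83 to -74 and from -77 to -68 relative to the start, and no GAS match. The Socs3 window held 1 GAS match, from -154 to -146. The Cish window held 2 GAS matches, from base 1 to 9 and from 12 to 20. The windows of Ptpn1, Ptpn6 and Pias1 held neither. Among all 32851 windows in the table, 8.3% held a GAS match and 3.44% an IRF element, while 0.457% held at least 2 GAS matches and 0.225% at least 2 IRF elements. The IRF and GAS patterns share no bases in these windows, and a match describes the letters only.

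Socs1, which lies on chromosome 16 from 10782240 to 10785536 (GRCm38, minus strand), had the largest ratios of the set at all 3 doses against untreated cells. Untreated cells had 2.06 FPKM, and treated cells had 4.55 (0.2 U/ml), 17.9 (2 U/ml) and 138 FPKM (20 U/ml). The level was thus higher at each higher dose, by 2.21-fold, then 3.93-fold, then 7.74-fold in FPKM, and the steps themselves grew. At 20 U/ml it stood 67.2-fold above untreated cells. The log2 ratio of (FPKM + 1), the scale used for all calls here, was 0.86, 2.63 and 5.51 from the lowest dose to the highest. These 3 ratios share the same untreated value. Among the 11580 entries the gene ranked 771 from the top with 0.2 U/ml, 43 with 2 U/ml and 7 with 20 U/ml.

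Socs3, on chromosome 11 from 117966079 to 117970047 (minus strand), had the same order of levels at a lower height. Untreated cells had 1.06 FPKM, and treated cells had 1.26 (0.2 U/ml), 3.02 (2 U/ml) and 9.67 FPKM (20 U/ml). The log2 ratios against untreated were 0.13, 0.96 and 2.37 from the lowest dose to the highest, and the FPKM at 20 U/ml was 9.09-fold that of untreated cells. Socs1 stood 14.3-fold above Socs3 at 20 U/ml and 1.93-fold above it in untreated cells, both in FPKM. The summed level of Socs1, Socs2, Socs3 and Cish was 3.41 FPKM in untreated cells and 6.12, 21.2 and 148 FPKM with dose, and Socs1 made up 60.3% of that sum in untreated cells and 74.3%, 84.1% and 93.1% of it with rising dose.

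Socs2 and Cish, the members tied to STAT5, were under 1 FPKM in every group and fell under the filter. Socs2 (chromosome 10, 95385362 to 95417180) had 0.236 FPKM in untreated cells and 0.272 (0.2 U/ml), 0.328 (2 U/ml) and 0.234 FPKM (20 U/ml) in treated ones, so the highest dose and untreated cells gave nearly the same value. Cish (chromosome 9, 107296026 to 107302784) had 0.0575 FPKM in untreated cells and 0.0375 (0.2 U/ml), 0.0298 (2 U/ml) and 0.321 FPKM (20 U/ml) in treated ones. Its value at 20 U/ml was above the other 3, but the log2 ratio to untreated of 0.32 became 1.42 with a pseudocount of 0.1, and at such levels with unknown depth no difference can be called. The Cish locus is overlapped on the other strand by Gm17040 and Gm17041, and the sources used here do not say whether counting used strand.

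**Figure D1:**
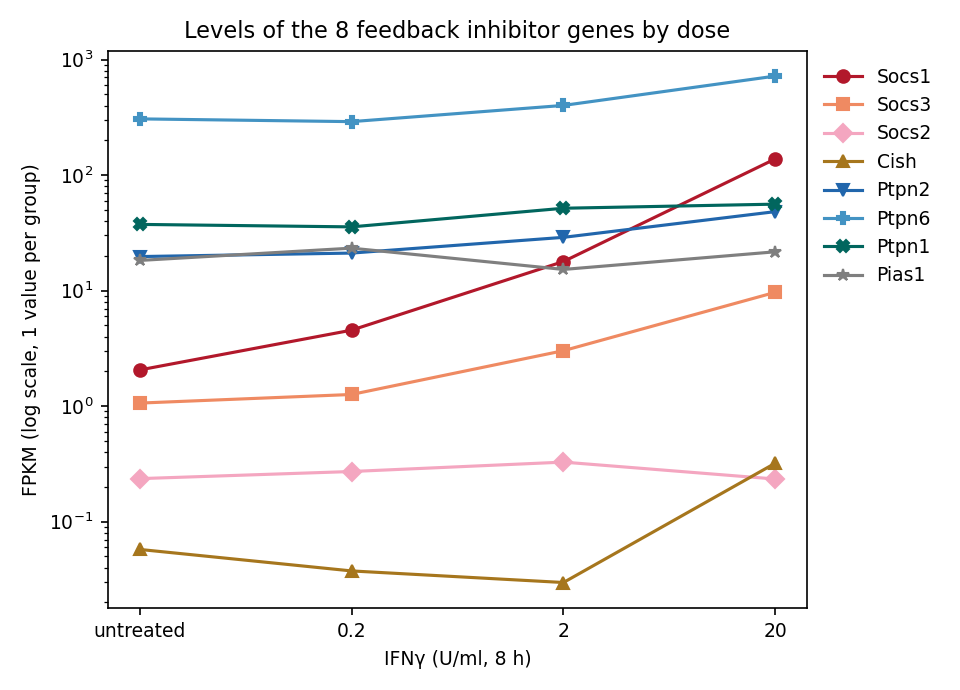
FPKM on a log axis (1 deposited value per group) for each of the 8 genes in untreated cells and at 0.2, 2 and 20 U/ml IFNγ for 8 h; lines join the values of a gene. Socs1 ranks second of the 8 at 20 U/ml (138 FPKM) and lies below Ptpn1, Ptpn2, Ptpn6 and Pias1 in untreated cells (2.06 FPKM), while Ptpn6 stays on top and Socs2 and Cish stay under 1 FPKM.

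The phosphatase genes began from higher levels and had smaller ratios. Ptpn6, which encodes SHP-1 of blood cells and lies on chromosome 6 from 124720707 to 124738714 (minus strand), was the most abundant of the set in every group. Untreated cells had 307 FPKM, and treated cells had 290.1 (0.2 U/ml), 401 (2 U/ml) and 719 FPKM (20 U/ml). The 2 lower values came from untreated cells and 0.2 U/ml, and the log2 ratio to untreated was -0.08, 0.39 and 1.23 with dose. Ptpn6 exceeded Socs1 5.2-fold at 20 U/ml and 149-fold in untreated cells in FPKM. A gene on the other strand, Gm20531, overlaps it. When FPKM were rescaled to equal sums per group, its log2 ratio at 20 U/ml was 1.00 and no longer past the size rule.

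Ptpn2, the TC-PTP gene on chromosome 18 from 67665511 to 67724595 (minus strand), had 19.7 FPKM in untreated cells and 21.1 (0.2 U/ml), 28.9 (2 U/ml) and 48.3 FPKM (20 U/ml) in treated ones. Its log2 ratios of 0.10, 0.53 and 1.25 were close to those of Ptpn6 at the upper doses, although its level was far lower. Ptpn1, the PTP1B gene on chromosome 2 from 167932057 to 167979385 (plus strand), had 37.4 FPKM in untreated cells and 35.6 (0.2 U/ml), 51.6 (2 U/ml) and 56.0 FPKM (20 U/ml) in treated ones. Its higher values came at 2 and 20 U/ml, with log2 ratios to untreated of 0.45 and 0.57, and 76.4% of its increment at 20 U/ml was present at 2 U/ml.

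Pias1, on chromosome 9 from 62878368 to 62987924 (minus strand), showed no order with dose. Untreated cells had 18.3 FPKM, and treated cells had 23.3 (0.2 U/ml), 15.2 (2 U/ml) and 21.7 FPKM (20 U/ml). Its log2 ratios to untreated were 0.34, -0.24 and 0.24, so the sign differed between doses. Without replicates it cannot be said which of these levels, or of neighbouring levels of Ptpn1, Ptpn2 and Pias1, differ beyond their spread.

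The size rule called an entry higher or lower from a log2 ratio of 1 or more in either direction, a 2-fold difference on this scale. At 20 U/ml, 4 of the 6 measured members were higher than untreated (Socs1, Socs3, Ptpn2 and Ptpn6) and 0 were lower, against a background of 6.51% of all entries higher and 2.94% lower. With 2 U/ml only Socs1 was higher among the 6, where 2.5% of all entries were and 0.76% were lower; Socs3, at 0.96, lay just under the rule. At 0.2 U/ml 0 of the 6 were higher, where 5.23% of all entries were and 0.328% were lower, and Socs1, at 0.86, was the nearest. More entries were thus higher at 0.2 than at 2 U/ml, out of the order of dose. The FPKM of all entries summed to 1025967 at 0.2 U/ml, against 769697 untreated, 783700 at 2 U/ml and 904992 at 20 U/ml. When FPKM were rescaled to equal sums per group, Socs1 at 0.2 U/ml was at 0.56 and Pias1 at -0.06. Why the sums differ was not tested. With a pseudocount of 0.1 in place of 1, Socs1 passed at 0.2 U/ml (1.11) and Socs3 at 2 U/ml (1.42). The median log2 ratio of the 6 members was 0.11, 0.49 and 1.24 with dose, beside 0.00, 0.01 and 0.01 over all entries.

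**Figure D2:**
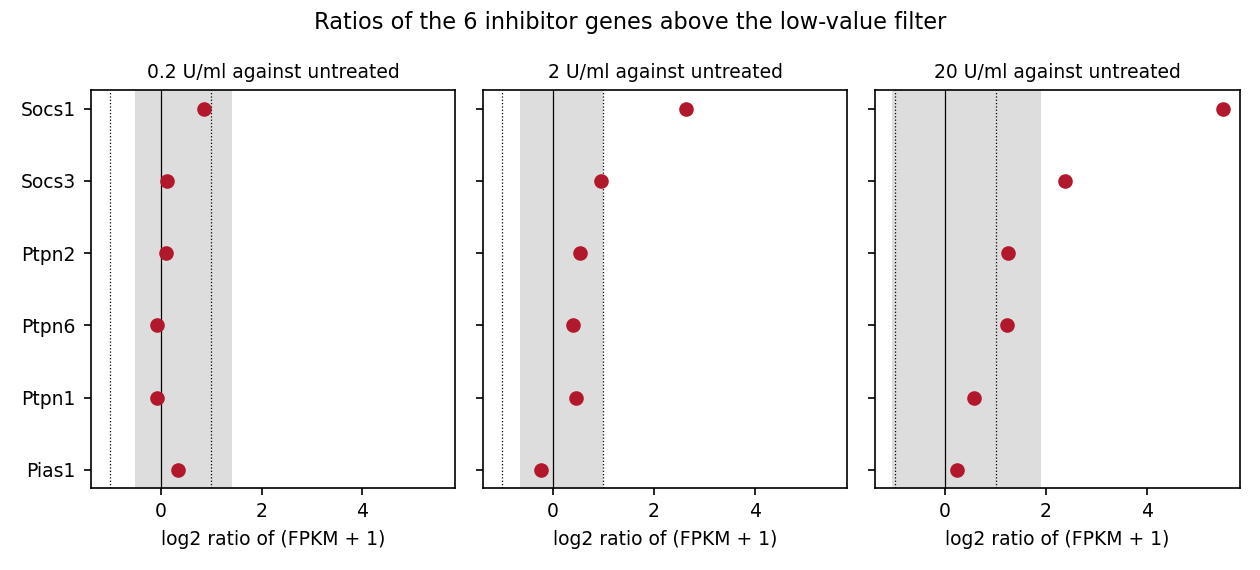
Log2 ratio of (FPKM + 1) to untreated cells for the 6 genes that passed the filter, in panels for 0.2, 2 and 20 U/ml; points are single values without error, the grey band spans the middle 95% of all 11580 entries, and dotted lines mark a ratio of 1 in size. At 20 U/ml Socs1 (5.51) and Socs3 (2.37) lie outside the band, which ends at 1.90, while Ptpn2 (1.25) and Ptpn6 (1.23) lie inside it and beyond the dotted line.

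The steps between doses separated the members further. From 0.2 to 2 U/ml, the log2 ratio was 1.77 for Socs1, 0.83 for Socs3, 0.52 for Ptpn1, 0.46 for Ptpn6, 0.43 for Ptpn2 and -0.58 for Pias1, and Socs1 was the only member of the 6 past the rule, where the background was 1.51% of all entries higher and 6.26% lower. From 2 to 20 U/ml, it was 2.88 for Socs1, 1.41 for Socs3, 0.84 for Ptpn6, 0.72 for Ptpn2, 0.48 for Pias1 and 0.12 for Ptpn1. Socs1 and Socs3 passed, where the background was 2.9% higher and 1.11% lower. Socs1 was thereby higher by the size rule at both steps, as were 91 of the 754 entries higher at 20 U/ml.

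The part of the increment over untreated at 20 U/ml that was already present at 2 U/ml gave another view of dose. For Socs1 this part was 11.6% in FPKM, for Socs3 22.7%, for Ptpn6 22.8% and for Ptpn2 32.2%. The median of the 754 entries higher at 20 U/ml was 30.2%, with quartiles at 19.4% and 43.4%, and Socs1 stood at percentile 12.6 among them. At 0.2 U/ml Socs1 had reached 1.83% of its increment. Entries that passed the low-value filter through their level at 20 U/ml alone count among the 754, and that selection bears on their part at 2 U/ml. Of a list of IFNγ response genes, drawn up with results of these cells known, the 4 with the largest ratios at 20 U/ml were the chemokine genes Cxcl9 and Cxcl10 and the guanylate-binding protein genes Gbp5 and Gbp2. Their parts at 2 U/ml were 1.81% for Cxcl9, 13.2% for Cxcl10, 24.1% for Gbp5 and 42.4% for Gbp2, so Socs1 stood between the 2 chemokine genes. The choice of these 4 by their ratio at 20 U/ml bears on their parts. Of the other entries of the list, only Nos2 (9.51%) lay below Socs1. The rest were Cd274 (28.7%), Ciita (35.5%), the merged entry of Ifi47 (44.0%), Irgm1 (45.5%), Tap1 (52.0%), Irf1 (54.4%) and Psmb9 (66.5%).

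**Figure D3:**
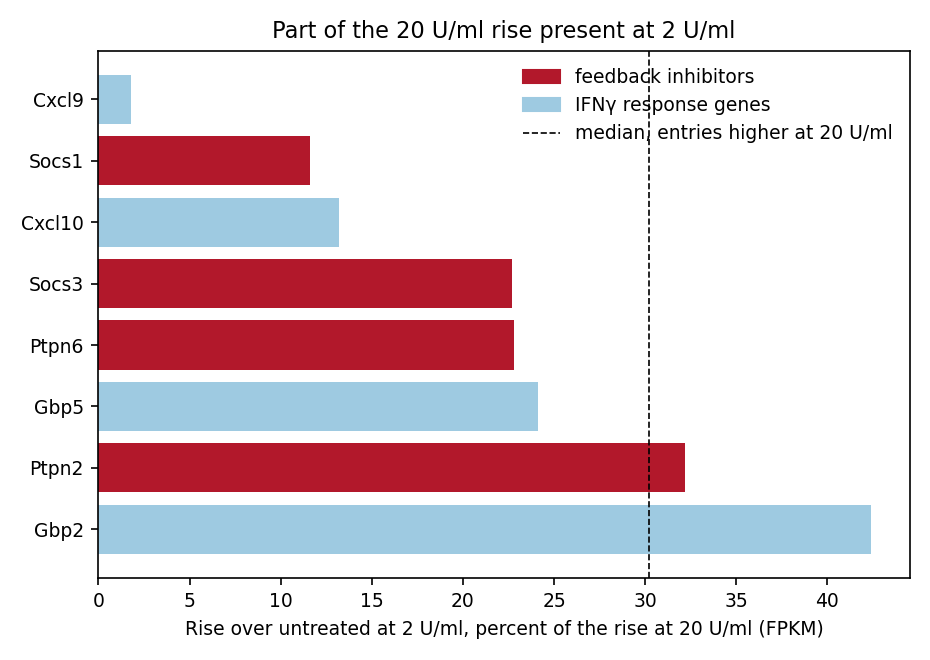
FPKM at 2 U/ml minus untreated, as a percent of FPKM at 20 U/ml minus untreated, for the 4 inhibitor genes higher at 20 U/ml (dark bars) and the 4 IFNγ response genes with the largest ratios at 20 U/ml (light bars); the dashed line is the median of the 754 entries higher at 20 U/ml, 30.2%. Socs1 (11.6%) stands between Cxcl9 and Cxcl10, and Ptpn2 (32.2%) near the median. The IFNγ response genes not drawn range from 9.51% (Nos2) to 66.5% (Psmb9).

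The entries whose 3 ratios to untreated lay nearest those of each called member were found by Euclidean distance over 3 log2 ratios among 10331 other entries of a named gene. Nearest to Socs1 were the chemokine genes Ccl8 (distance 0.098) and Cxcl10 (0.41), the receptor gene Klrk1 (0.36), Serpina3f (0.37) and Cnn3 (0.45). Ccl8 had log2 ratios of 0.81, 2.70 and 5.47 with dose. Nearest to Socs3 were the RNA sensor gene Ifih1 (0.14), F830016B08Rik (0.18), Gpr84 (0.21), Scimp (0.24) and BC023105 (0.26). Nearest to Ptpn2 were Pcgf5 (0.031), Rgmb (0.050), Slc16a3 (0.068), Gm14085 (0.074) and Fpr1 (0.080), and nearest to Ptpn6 was B2m (0.064), the light chain gene of MHC class I, followed by Ppp1r15b (0.098), Stx11 (0.099), Rnf139 (0.099) and Gm6904 (0.10). Smaller ratios are crowded, so short distances there single out little.

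The rest of each family gave the setting. Among the other SOCS genes, 0 of 4 passed the size rule at any dose against untreated, and their median log2 ratio at 20 U/ml was -0.15. Socs4 had 4.69 FPKM with 20 U/ml against 5.34 untreated, Socs5 at 2.70 against 3.86, Socs6 at 10.9 against 12.2 and Socs7 at 5.91 against 4.13. At 20 U/ml Socs1 stood above all 4 of these, and in untreated cells each of the 4 stood above Socs1 and Socs3. Of the other PIAS genes 0 of 3 passed at each dose as well, with Pias2 at 6.27 FPKM (20 U/ml) against 4.97 (untreated), Pias3 at 10.2 against 10.2 and Pias4 at 30.7 against 37.6.

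Other phosphatases that act on JAK or STAT proteins had 0 of 5 measured entries past the rule at each dose, with a median log2 ratio of 0.02 at 20 U/ml. Ptpn11, the SHP-2 gene and closest relative of Ptpn6, had 11.4 FPKM with 20 U/ml against 11.2 untreated. Ptprc, the CD45 gene, was at 86.2 against 60.2, Ptprj at 27.3 against 19.2 and Dusp3 at 27.6 against 37.8. Among 7 measured entries of further non-receptor tyrosine phosphatases 0 passed at each dose against untreated and the median was -0.02 at 20 U/ml. Ptpn22 was past the rule in the step from 2 to 20 U/ml, with a log2 ratio of 1.17 (24.5 FPKM at 20 U/ml against 10.3 at 2 U/ml). The largest ratios to untreated in size at 20 U/ml there were those of Ptpn22 (0.82), Ptpn18 (0.48), Ptpn21 (-0.34) and Ptpn7 (-0.11).

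**Figure D4:**
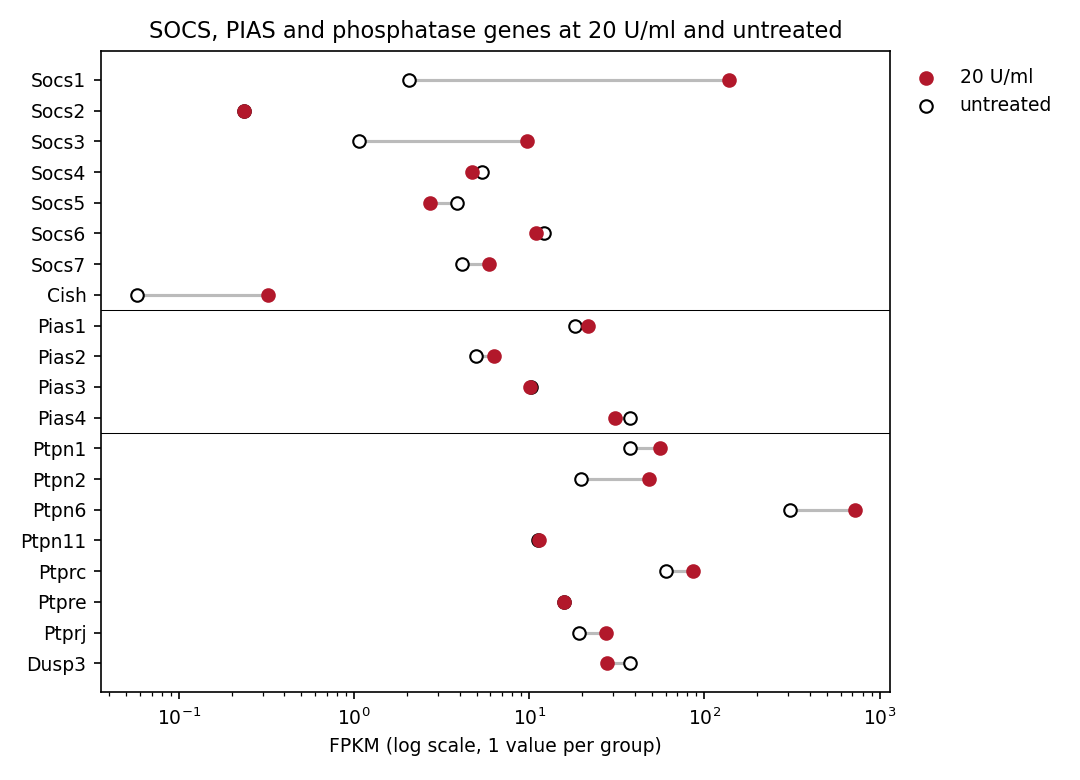
FPKM on a log axis at 20 U/ml (filled) and in untreated cells (open) for 8 SOCS genes, 4 PIAS genes and 8 phosphatase genes, 1 deposited value per group and no error. The wide gaps are those of Socs1 (138 against 2.06), Socs3 (9.67 against 1.06) and, under 1 FPKM, Cish (0.321 against 0.0575); Ptpn2 and Ptpn6 have narrower ones.

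Transcripts from a list of partners of the SOCS box did not pass the size rule. Which of these partners SOCS proteins use in these cells was not tested. Of 6 entries for elongins, cullins and ring proteins 0 were past it at each dose, with a median of -0.03 at 20 U/ml. The elongin genes Tceb1 and Tceb2 had 357 and 496.5 FPKM with 20 U/ml against 345 and 579.8 untreated. The scaffold gene Cul5 was at 7.07 against 5.81, its partner Rnf7 at 108 against 134, Cul2 at 34.7 against 18.5 and Rbx1 at 123 against 132. These levels, apart from the cullins, were above 100 FPKM in every group.

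The targets of the inhibitors were split. Among 11 receptor, JAK and STAT entries 3 were higher at 20 U/ml and 0 lower, and the median log2 ratio was 0.34. The 3 were Stat2 (2.87), Stat3 (1.49) and Jak2, just over the rule with 10.6 against 4.77 FPKM. The remaining ratios at 20 U/ml were 0.97 for the merged entry of Jak3 and Insl3, 0.78 for Tyk2, 0.34 for Stat5b, 0.17 for Ifngr2, 0.14 for Jak1, -0.01 for Stat6, -0.12 for Stat5a and -0.27 for Ifngr1. Stat3, the factor best known for inducing Socs3, was at 16.1, 33.0, 37.8 and 47.0 FPKM from untreated to 20 U/ml. Its largest step was to 0.2 U/ml, where Socs3 had a log2 ratio of 0.13. Only transcripts were measured, and a link of Stat3 to Socs3 was not tested.

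Other inhibitors of cytokine signalling were mostly near their untreated level. Of 11 measured entries 2 were higher at 20 U/ml and 0 lower, and the median was -0.04. The 2 were Il18bp, which encodes a decoy for interleukin-18 (131 against 2.55 FPKM), and Usp18, a brake on type I interferon receptors (105 against 7.81 FPKM). Nlrc3 (-0.87) and Zfp36 (0.62) came next in size. Usp18 had 13.5% of its increment present at 2 U/ml and Il18bp 30.8%.

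The cells carried macrophage markers at every dose, with Csf1r between 340.2 and 418 FPKM, while Lyz2 was listed at 0 in 3 of the groups, which can be a failed estimate. Markers of T and NK cells were under 1 FPKM in every group in 8 of 8 cases and erythroid markers in 4 of 4, and Cd3e, Ncr1 and Pax5 were listed at 0 throughout. The same held for 2 of 4 B cell, 4 of 8 neutrophil, 3 of 5 dendritic cell, 4 of 5 mast cell and basophil, and 4 of 5 stromal and endothelial markers. The summed neutrophil markers lay between 32.0 and 39.2 FPKM, but 2 of them passed the size rule in opposite directions: S100a8 was at 30.4 FPKM with 20 U/ml against 13.3 untreated (log2 ratio 1.14) and Mmp8 at 3.69 against 15.9 (-1.85). Dendritic cell markers summed to 48.4 FPKM with 20 U/ml against 1.92 untreated, nearly all from the merged entry of Clec9a and Clec1b (47.1 against 1.27). The part of these neutrophil and dendritic cell markers in the results was not tested.

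The authors' deposited table of a comparison of treated with untreated cells also covers the 8 genes. The deposit labels it IFN but gives no type of interferon and no dose, and it does not say which libraries entered it. Whether the treatment is the IFNγ of the dose series is thus not known, and its values were not set against that series. In the authors' deposited table the log2 fold change was 6.13 for Cish, 4.59 for Socs3 and 4.50 for Socs2. For Socs1 the authors' deposited table gave 0.47, with a q-value of 0.0790. Of the other SOCS genes, Socs7 had a log2 fold change of 2.40 in the authors' deposited table, Socs4 1.88, Socs6 1.25 and Socs5 0.31.

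Among the phosphatase genes and Pias1, directions differed. Ptpn6 was the only member marked as significantly lower in the authors' deposited table, with a log2 fold change of -2.00. There, in the authors' deposited table, the values were 2.16 for Ptpn2, 1.85 for Ptpn1 and 1.24 for Pias1. In the authors' deposited table, marks of significance were common. There 6 of the 8 members were marked higher and 1 lower, where the authors' deposited table marked 35.1% of 12854 tested entries higher and 33.8% lower. The 7 marked members had a q-value of 9.95e-05 each in the authors' deposited table, with the smallest p-value it holds, 5e-05. That p-value is shared by 6460 entries of the authors' deposited table, so it does not set the 7 apart.

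Genes known to follow IFNγ did not share a direction in that comparison. Among 8 tested IFNγ response genes, the authors' deposited table marked 3 as higher and 3 as lower. In the authors' deposited table the log2 fold change was 2.80 for Cxcl10, 2.56 for Gbp5 and 0.28 for Gbp2 (q-value 0.310), and Cxcl9 was not tested. The 3 that the authors' deposited table marked as lower were Psmb9 (-1.68), Tap1 (-1.08) and Irgm1 (-0.94).

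**Figure D5:**
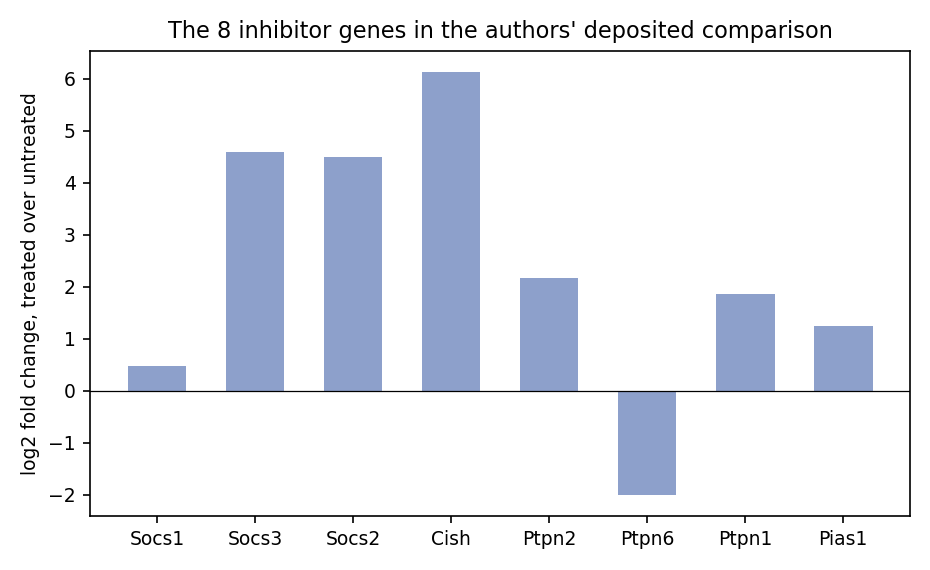
Log2 fold change of treated over untreated cells for the 8 genes in the authors' deposited table, which is labelled IFN without a type or dose. Bars are single values without error. Cish (6.13) has the tallest bar, Socs1 (0.47) the shortest, and Ptpn6 (-2.00) the only one below 0.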

How the data were processed

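RNA from 12 libraries in 4 groups was sequenced. The tools named for the authors' processing are Cuffdiff 2.1.1, Cufflinks 2.1.1 and TopHat2 2.1.1, and the build is mm10, per the submitters' processing notes. FPKM fill the expression table, per the file headers; its untreated column names no unit and was read as FPKM from its range. The sources used here do not say how the 3 libraries of a group became 1 value. The second table holds the authors' log2 fold change, test score, p-value and q-value, per the file headers; its 2 columns of levels per condition name no group of the labels and were left aside.

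Ratios were differences of log2(FPKM + 1), which understate those of low genes. Entries with a mean under 1 FPKM, or listed at 0 in a group, were left out of ratios, which left 11580, and the size rule was a log2 ratio of at least 1. Tests with limma on libraries were not possible with 1 value per group. Members, gene lists and rules were chosen with earlier results of these data known. All 8 members are named. Each list gives up to 4 genes with the greatest ratio in either direction at 20 U/ml. All genes are given for the other SOCS, PIAS, SOCS box and receptor lists. Further entries are named where they bear on a count or a part. The 5 nearest entries are given for each called member. Lists leave out symbols that occur in several entries, and some items of the receptor and marker lists are not reported here.

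Positions came from GENCODE M21 (GRCm38, the assembly behind mm10) and promoters from RefSeq (GRCm38.p6). The authors' loci differ from that annotation for 3 members, which can shift their FPKM: the start (authors' minus annotated) differs by 1568 bases for Socs1, -3591 for Cish and 1709 for Pias1, and the end by -7045 for Pias1. Ratios and scalings were tested on simulated data. Python 3.11.15, numpy 2.4.6 and pandas 2.3.3 were used.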

Additional observations from a re-analysis of the deposited data

How the results depend on the processing

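Of 230 alternative ratios of single members, 217 kept their side of the size rule, 12 passed it only under the alternative, 1 fell under it (Ptpn6 at 20 U/ml, 1.00 with FPKM rescaled to equal sums per group) and 0 changed sign once called. At 20 U/ml against untreated the count of 4 members was 2 under a 4-fold size rule, 3 with the rescaled sums (without Ptpn6) and 3 with a mean of at least 5 FPKM (without Socs3). At 2 U/ml the count of 1 was 2 with a pseudocount of 0.1, with 0.01, with the rescaled sums and under a 1.5-fold rule, and Socs3 was the added gene with both pseudocounts (1.42 with 0.1) and the rescaled sums (1.03). At 0.2 U/ml the count of 0 was 1 with a pseudocount of 0.1, with 0.01 and under a 1.5-fold rule. From 0.2 to 2 U/ml the count of 1 was 2 with a pseudocount of 0.1, with 0.01, with the rescaled sums and under a 1.5-fold rule, and 0 under a 4-fold rule. From 2 to 20 U/ml the count of 2 was 4 under a 1.5-fold rule, 1 under a 4-fold rule and 1 when the filter asked for a mean of 5 FPKM, which Socs3 does not reach. Each shift follows from the rule, filter, pseudocount or scaling itself. Why the summed FPKM differ between groups was not tested.

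Rescaling to equal sums moved the median ratio of all entries by -0.37 at 0.2 U/ml and by -0.21 at 20 U/ml, upper-quartile scaling by -0.10 and -0.13. No paired analysis was possible because the table holds 1 value per group, and no replicate could be left out. Depth is unknown, so values under 1 FPKM (Socs2, Cish) have no stated precision.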

Other observations

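Inputs to the pathways that SOCS3, CIS and SHP-1 restrain were described from lists chosen with results of these data known. Among 8 measured entries of ligands and receptors of the gp130 and interleukin-10 families, 2 were higher at 20 U/ml and 0 lower, and the median log2 ratio was -0.16. The 2 were the ligand subunit gene Il27 (17.1 against 1.86 FPKM) and the receptor gene Il10ra (49.9 against 21.1 FPKM). Csf3r (0.64) and Osm (-0.52) followed in size. Il6, a ligand of gp130 receptors, had 0.317 FPKM with 20 U/ml against 0.00713 untreated, both under 1 FPKM. Among 7 measured entries of receptors that use STAT5, 1 was higher at 20 U/ml, the merged entry of Il2rg with Gm20489 and Gm614 (225 against 62.4 FPKM). The merged entries of Csf2rb2 (0.70) and Csf2rb (0.56) and Il3ra (-0.56) came next. Of 8 entries of STAT5 target genes, Ccnd1 (1.41) and Pim1 (1.11) were higher at 20 U/ml, and Id1 (0.84) and Cdkn1a (0.67) did not pass. Socs2 and Cish, also known as STAT5 targets, were under 1 FPKM in every group.

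Entries of a list of inhibitory receptors, drawn up for docking SHP-1, went both ways while Ptpn6 was higher. Whether each of them docks SHP-1 in these cells was not tested. Of 8 measured entries at 20 U/ml, Clec12a was higher (445 against 209.6 FPKM) and Cd33 (4.05 against 16.7 FPKM) and Fcgr2b (29.9 against 70.6 FPKM) were lower, and Sirpa was at 350 against 513 FPKM. The SUMO conjugation list, the machinery PIAS1 works with, had 0 of 8 entries past the rule at any dose and a median of 0.10 at 20 U/ml, with the merged entry of Sumo3 (0.52), Uba2 (0.26), Senp2 (-0.22) and Senp1 (0.20) furthest from 0. A type I interferon list held mostly response genes. Of its 11 measured entries 8 were higher at 20 U/ml, where 6.51% of all entries were, and the median was 4.54. Those furthest from 0 were Ifit2 (5.03), Ifit3 (5.01), Isg15 (4.96) and Mx1 (4.82). The ligand gene Ifnb1 was under 1 FPKM in every group (0.4997 FPKM at 20 U/ml). The receptor gene Ifnar1 (-0.35) and the merged entry of Ifnar2 (-0.05) did not pass.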
